A study of Mus musculus with 11 samples.

Results

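The genes described here are the cytosolic ribosomal protein genes of the mouse, taken as every gene of the count table whose symbol is Rps, Rpl or Rplp followed by a number and at most 1 closing letter a, x, y or l. The rule found 81 of 24421 genes, 50 of the large subunit (Rpl and Rplp) and 31 of the small subunit (Rps), and it used no measured value. It takes in 6 related genes whose names end in l: Rpl3l, Rpl10l, Rpl39l, Rps27l, Rps4l and Rpl32l. It leaves out ribosomal proteins with other names, such as Rpsa and Fau, which are given separately. All 81 had reads in every 2-cell library.

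RNA-seq read counts came from 11 libraries of pooled mouse oocytes and embryos. Knockout oocytes (3 libraries) came from Daxx f/f; Zp3-cre females, in which Cre driven by the promoter of the zona pellucida gene Zp3 removes floxed Daxx in growing oocytes. Control oocytes (3 libraries) came from Daxx f/f females without Cre, which the titles call WT. Maternal knockout 2-cell embryos (2 libraries, numbered 2 and 3) and control 2-cell embryos (3 libraries) came from such oocytes after in vitro fertilisation with sperm of JF1 males aged 8 weeks, so an embryo without maternal Daxx had a paternal copy. The oocytes were at metaphase II, 20 hours after hCG, and the embryos were taken 33 hours after fertilisation. Each library held 50 oocytes or embryos from 2 to 3 females over 8 weeks of age, of mixed C57BL/6J and 129/Sv background. All females carried floxed Daxx and only knockout females carried the transgene, so effects of Cre and of Daxx loss cannot be told apart. Daxx itself, which encodes a histone H3.3 chaperone, had 8.14 ± 0.286 CPM (counts per 1000000 counted reads) in knockout oocytes and 92.6 ± 5.67 in control oocytes (SD, n = 3 each). In embryos it had 24.2 ± 1.88 CPM in maternal knockouts (SD, n = 2) and 39.7 ± 6.14 in controls (SD, n = 3).

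The cytosolic ribosome is built from a small subunit, which decodes the mRNA, and a large subunit, which forms the peptide bond. In most cells the ribosomal protein genes are transcribed at high, balanced levels, and their mRNAs begin with a 5′ terminal oligopyrimidine (TOP) tract through which mTORC1 and the RNA-binding protein Larp1 control translation. A mouse oocyte fills its store of ribosomes while it grows and is transcriptionally silent at metaphase II. The embryo starts its own transcription at the 1- and 2-cell stages, when much maternal mRNA is degraded.

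In metaphase II oocytes the 81 genes together took 0.137%, 0.146% and 0.132% of counted reads in the knockout libraries and 0.132%, 0.139% and 0.131% in the control libraries. In 2-cell embryos they took 0.342% and 0.367% in maternal knockouts and 0.293%, 0.409% and 0.377% in controls. The embryo libraries all lay above the oocyte libraries, and the genotypes overlapped at both stages. The shares are relative to all counted reads of a library, and in pools a change in the number of cells that hold an RNA and a change in RNA per cell cannot be told apart. Counted reads were 32582998 to 39798586 per oocyte library and 17978192 to 25308468 per embryo library. The median level of the 81 genes per length (counts per kilobase of the deposited gene width, scaled to the same total in every library as for CPM) was 24.1 ± 2.08 in knockout oocytes and 24.1 ± 0.429 in control oocytes (SD, n = 3 each). It was 42.6 ± 7.74 in maternal knockout embryos (SD, n = 2) and 46.4 ± 9.88 in control embryos (SD, n = 3). Control embryo 3 was the highest library at 57.8 and maternal knockout embryo 2 the lowest embryo library at 37.1.

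**Figure D1:**
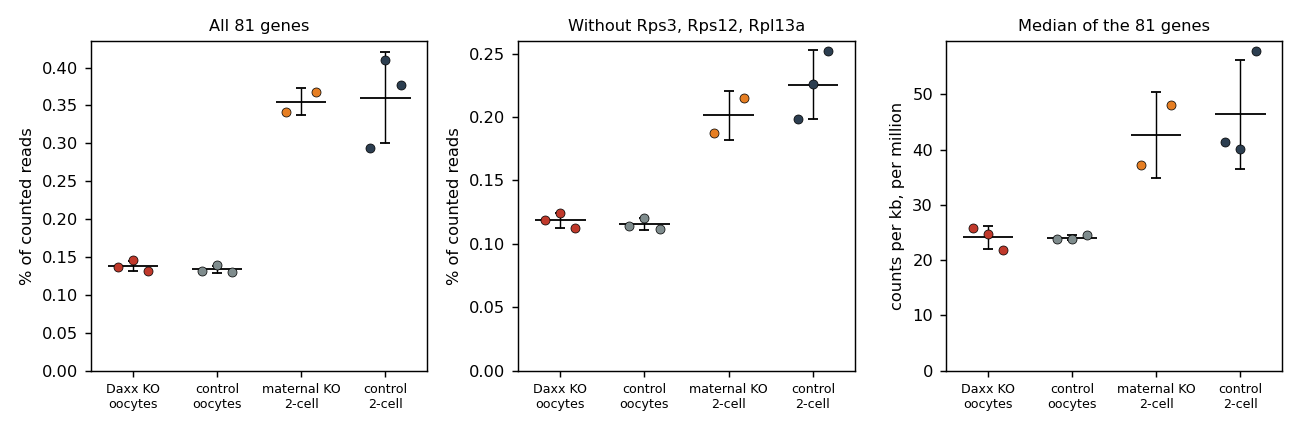
Share of counted reads of the 81 ribosomal protein genes (left), the same without Rps3, Rps12 and Rpl13a (middle), and the median level per length of the 81 genes (right) in each library; points are libraries, lines are group means and bars are SD. The embryo libraries lie above the oocyte libraries in all 3 panels, and knockout and control libraries overlap at both stages.

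The genes were unequal in level. Per length, the highest over the 4 groups were Rpl4, Rpl32, Rps12, Rpl41 and Rps27l, and the lowest were Rpl5, Rpl3, Rps6, Rpl9 and Rpl35a. This order depends on the deposited width, which for some genes is far from the length of an annotated transcript. The width was 4384 bases against 468 for Rps24, 5136 against 640 for Rps15a and 452 against 946 for Rpl35. Of the genes just named, Rps12 had the largest gap, at 1803 against 490. The place of Rps12 seems to rest on small nucleolar RNA reads in its count, as inferred below. Its mean over the groups was 385, and 171 with the counts of those RNAs subtracted. That subtraction took it to place 10 and, done for Rps3 and Rpl13a too, brought Rplp1 into the 5 highest. Rpl4, a large subunit protein that lines the exit tunnel, stood at 609 ± 18.2 in knockout oocytes and 600 ± 15.2 in control oocytes per length (SD, n = 3 each). Rpl5, which binds the 5S rRNA together with Rpl11, stood at 3.60 ± 0.143 and 3.50 ± 1.00 in the same groups. The order was nearly the same in the genotypes of one stage: across the 81 genes, Spearman's rho of the mean levels per length was 0.996 between knockout and control oocytes and 0.994 between maternal knockout and control embryos. Between control embryos and control oocytes it was 0.738. These points share libraries, and their genes differ in how much of their sequence is their own.

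Ribosomal protein genes have many processed pseudogenes, and so share much sequence with other loci. Of the 50-base windows of each gene's GENCODE M21 transcript, a median of 46.7% occurred in no other annotated gene. The value ran from 1.35% for Rps27 to 100%, as in Rpl3l and Rpl39l, and 44 genes were under 50%. The median level per length of these 44 genes was 15.4 in knockout oocytes and 13.7 in control oocytes, and that of the other 37 genes was 42.0 in knockout oocytes and 39.8 in control oocytes. Spearman's rho between the unique share and the level per length was 0.313 in knockout oocytes and 0.308 in control oocytes, as a description over 81 genes. The sources used here do not say how reads shared between genes were counted, and its part in the levels was not tested. The unique share and the change between stages had a rho of -0.0311 in knockouts and -0.0397 in controls.

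Most ribosomal protein genes rose between oocyte and 2-cell embryo in both genotypes. In control embryos against control oocytes, 64 of 81 were higher and 8 lower at an adjusted p under 0.05 (edgeR quasi-likelihood test, Benjamini-Hochberg adjustment over all genes tested), and the median log2 fold change was 1.41. Of all 15577 genes tested there, 43.1% were higher and 40.0% lower, with a median of 0.07. In maternal knockout embryos against knockout oocytes, 59 of 81 were higher and 13 lower, with a median of 1.16, and of all 16592 genes tested 42.5% were higher and 37.7% lower, with a median of 0.09. At least 2-fold higher were 43 genes in knockouts and 49 in controls, where 33.2% and 33.0% of all genes were. At least 2-fold lower were 5 in knockouts and 3 in controls, where 26.4% and 28.5% of all genes were. Of the large subunit genes 35 of 50 rose in knockouts and 37 in controls. Of the small subunit genes 24 of 31 rose in knockouts and 27 in controls.

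The comparisons of stages share no library, and their calls can be set side by side. All 59 genes that rose in knockouts also rose in controls, where they are 92.2% of the 64. The 8 genes that fell in controls also fell in knockouts, where they are 61.5% of the 13. Rpl30, Rpl4, Rps14, Rps16 and Rps25 rose only by the control call, and Rpl14, Rpl15, Rpl35, Rpl39l and Rpl7a fell only by the knockout call. Rpl36a, Rpl5, Rps18 and Rps7 passed in neither. The test of the difference between the genotypes called 0 of 81 genes, so none of these 10 genes is shown to differ.

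**Figure D2:**
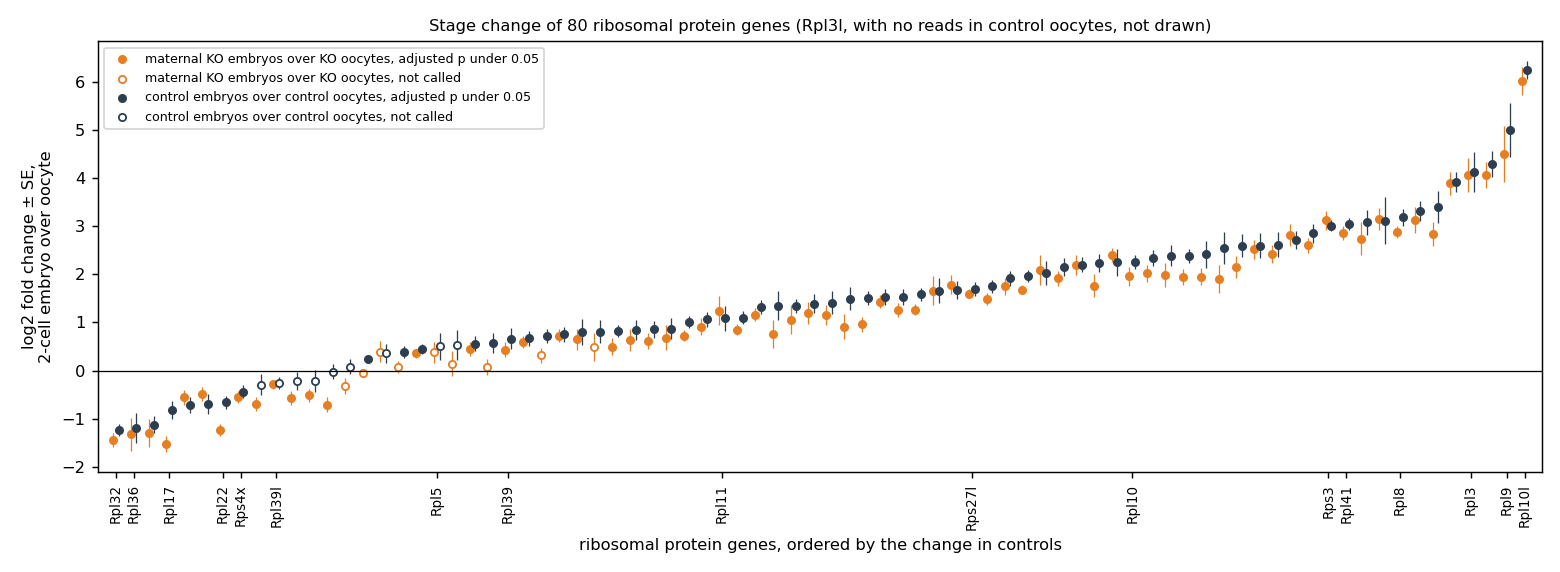
Log2 fold change with SE of 2-cell embryos over oocytes for 80 ribosomal protein genes, in maternal knockouts (orange) and controls (dark), ordered by the change in controls; filled points passed an adjusted p of 0.05, and some genes of the text are named on the axis. Rpl3l, with no reads in control oocytes, is not drawn. The orange and dark points of a gene mostly lie close together, from Rpl32 at the low end to Rpl10l at the high end.

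The steepest rises were of genes that oocytes barely held. Rpl3l, the paralog of the large subunit protein Rpl3 known from striated muscle, had 10.2 and 6.42 CPM in maternal knockout embryos and 7.34, 7.63 and 9.51 CPM in control embryos. Knockout oocytes had 1 read of it over 3 libraries and control oocytes none, which allows up to 0.0271 CPM over the group (3 counts). The level in control embryos was 305 times that floor. The 95% counting interval of its ratio to control oocytes began at 247. In knockouts the ratio of embryos to oocytes was 968, with a 95% counting interval of 173 to 38313. Its transcript shares no 50-base window with another gene.

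Rpl10l, the autosomal paralog of the X-linked Rpl10 that takes its place in male meiosis, had 52.3 and 54.0 CPM in maternal knockout embryos, against 1.18, 0.851 and 0.344 CPM in knockout oocytes. It had 47.4, 51.0 and 63.2 CPM in control embryos, against 0.767, 0.779 and 0.547 CPM in control oocytes. The log2 change was 6.02 ± 0.30 (SE) in knockouts with an adjusted p of 1.77e-07, and 6.24 ± 0.19 in controls with an adjusted p of 9.12e-11. No library of one stage overlapped the other.

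Rpl9, Rpl3 and Rps19 followed. Rpl9, a large subunit protein near the stalk base, had 2.17 and 2.90 CPM in maternal knockout embryos and 3.34, 3.76 and 2.91 CPM in control embryos. In oocytes it had 9, 2 and 1 reads in the knockout libraries and 0, 9 and 2 in the controls, and only 6.68% of its windows were its own. Rpl3, which reaches the peptidyl transferase centre, had 5.41 and 7.73 CPM in maternal knockout embryos, against 0.576, 0.319 and 0.238 CPM in knockout oocytes. In controls it had 6.34, 7.68 and 8.55 CPM in embryos, against 0.153, 0.302 and 0.781 CPM in oocytes. Rps19, the small subunit protein most often mutated in Diamond-Blackfan anaemia in humans, had 6.52 and 8.40 CPM in maternal knockout embryos, against 0.367, 0.452 and 0.476 CPM in knockout oocytes. In controls it had 7.84, 9.46 and 12.2 CPM in embryos, against 0.645, 0.427 and 0.416 CPM in oocytes. All 3 genes were below 1 CPM in every oocyte library and above 2 CPM in every embryo library, and each passed the test in both genotypes.

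Rps27, Rpl10a, Rpl8, Rps12 and Rps3 were also among the 10 largest rises in one genotype or the other. Rpl8, a large subunit protein at the centre of the subunit with 92.1% of its windows its own, rose by a log2 change of 2.87 ± 0.13 in knockouts (adjusted p = 3.92e-08) and 3.18 ± 0.18 in controls (adjusted p = 1.06e-08). It had 74.5 and 88.9 CPM in maternal knockout embryos, against 10.03, 11.9 and 10.5 CPM in knockout oocytes. Rpl10a rose by 3.14 ± 0.27 in knockouts and 3.32 ± 0.21 in controls (log2 change ± SE). Rps27 rose by 3.40 ± 0.32 in controls, and 1.35% of its windows were its own. Rpl41, which encodes the shortest ribosomal protein, moved with them: its level per length was 585 ± 135 in maternal knockout embryos (SD, n = 2) and 711 ± 185 in control embryos (SD, n = 3), against 91.0 ± 1.88 in knockout oocytes and 95.5 ± 3.68 in control oocytes (SD, n = 3 each).

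The 8 genes that fell in both genotypes were Rpl32, Rpl36, Rpl32l, Rpl17, Rpl31, Rps4l, Rpl22 and Rps4x. Rpl32, the highest of all 81 per length in oocytes, had 37.5 and 51.6 CPM in maternal knockout embryos, against 113, 124 and 114 CPM in knockout oocytes. In controls it had 39.8, 52.7 and 53.9 CPM in embryos, against 111, 121 and 105 CPM in oocytes. Every embryo library was below every oocyte library, and the log2 change was -1.44 ± 0.15 in knockouts (adjusted p = 1.31e-05) and -1.23 ± 0.12 in controls (adjusted p = 1.50e-06).

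Rpl22, a large subunit protein that mice can lose because its paralog Rpl22l1 stands in, had 16.3 and 13.6 CPM in maternal knockout embryos, against 33.2, 36.9 and 32.1 CPM in knockout oocytes. In controls it had 17.4, 20.0 and 24.8 CPM in embryos, against 31.7, 32.4 and 31.9 CPM in oocytes. Its log2 change was -1.23 ± 0.12 in knockouts and -0.65 ± 0.14 in controls, and both passed. Rpl22l1 fell as well, by 0.89 on the log2 scale in knockouts and by 0.68 in controls, so both genes of the pair were lower in embryos.

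Rpl17, a protein at the exit of the tunnel, fell by 1.52 on the log2 scale in knockouts and by 0.81 in controls. Rpl36 fell by 1.32 in knockouts and by 1.19 in controls, and Rpl31 by 0.56 in knockouts and by 0.71 in controls. The smallest fall of the 8 was that of Rps4x, by 0.54 in knockouts and by 0.44 in controls. Of the 8 genes, 4 (Rpl31, Rpl32, Rpl32l and Rps4l) overlap another gene by position, against 8 of the 64 that rose in controls. The sources used here do not say whether counting used strand, and the part of overlapping genes was not tested.

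The X-linked ribosomal protein genes, Rpl10, Rpl36a, Rpl39 and Rps4x, did not move alike. Rpl10 rose to 16.95 and 18.5 CPM in maternal knockout embryos, against 4.16, 5.45 and 3.65 CPM in knockout oocytes. In controls it had 18.1, 18.7 and 18.9 CPM in embryos, against 3.96, 3.94 and 3.57 CPM in oocytes. Rpl39 rose less, to 11.4 and 11.01 CPM in maternal knockout embryos, against 8.51, 8.53 and 7.09 CPM in knockout oocytes. Rps4x fell, as above, and Rpl36a passed in neither genotype. Rpl5 and Rpl11 hold the E3 ligase Mdm2 in check when ribosome assembly fails. Rpl11 had 7.59 and 11.7 CPM in maternal knockout embryos and 6.40, 9.46 and 10.6 CPM in control embryos, against 2.85, 3.67 and 5.24 CPM in knockout oocytes and 3.31, 3.22 and 5.62 CPM in control oocytes, and rose in both genotypes, by a log2 change of 1.25 ± 0.29 (SE) in knockouts and 1.09 ± 0.26 in controls. Rpl5 passed in neither, at 0.38 ± 0.22 in knockouts and 0.50 ± 0.27 in controls, and the difference between the pair was not tested.

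The 6 genes with names ending in l each have a partner, and the balance within a pair changed in some pairs. Rpl39l, the testis-enriched paralog of Rpl39, lies at chr16:10170197-10174911 (GRCm38) and its coding sequence is as long as that of Rpl39, at 153 bases. The pair is 85.0% identical and differs at 23 bases, which are in capitals in both coding sequences from GENCODE M21.
Rpl39l: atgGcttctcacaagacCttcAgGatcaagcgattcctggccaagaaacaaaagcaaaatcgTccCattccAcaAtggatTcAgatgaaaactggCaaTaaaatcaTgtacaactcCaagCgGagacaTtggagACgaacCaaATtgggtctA
Rpl39: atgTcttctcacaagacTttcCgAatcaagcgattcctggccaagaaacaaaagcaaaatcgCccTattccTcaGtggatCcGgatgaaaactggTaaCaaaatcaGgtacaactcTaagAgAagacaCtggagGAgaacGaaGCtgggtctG
The differences are spread along the sequence, so 100% of the 50-base windows of Rpl39l and 83.5% of those of Rpl39 were unique and reads of the pair can be told apart. Rpl39l had 43.3, 45.1 and 42.8 CPM in knockout oocytes and 41.9, 45.4 and 43.5 CPM in control oocytes. Per length it was 2.95 ± 0.269 times Rpl39 in knockout oocytes and 3.16 ± 0.945 times Rpl39 in control oocytes (SD, n = 3 each). In embryos the ratio was 1.78 ± 0.156 in maternal knockouts (SD, n = 2) and 1.60 ± 0.180 in controls (SD, n = 3). Rpl39l was the more abundant of the pair in every library.

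Rps27l, a paralog of Rps27 that is known as a p53 target, was also the more abundant of its pair in every library. It had 109 and 120 CPM in maternal knockout embryos and 91.3, 143 and 132 CPM in control embryos, against 35.6, 37.9 and 36.6 CPM in knockout oocytes and 38.4, 38.7 and 34.1 CPM in control oocytes. Its ratio to Rps27 per length was 46.1 ± 6.75 in knockout oocytes and 81.5 ± 45.8 in control oocytes (SD, n = 3 each). In embryos it was 19.2 ± 0.758 in maternal knockouts (SD, n = 2) and 20.2 ± 2.504 in controls (SD, n = 3). These ratios rest on a partner that had 1.35% unique windows, against 77.6% for Rps27l. The coding sequences of the pair are 76.2% identical.

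The Rpl10l pair changed places. Per length, Rpl10l was 0.148 ± 0.0799 times Rpl10 in knockout oocytes and 0.151 ± 0.0203 times in control oocytes (SD, n = 3 each). In embryos it was 2.49 ± 0.0981 times Rpl10 in maternal knockouts (SD, n = 2) and 2.40 ± 0.323 times in controls (SD, n = 3). Rpl10l has 92.4% unique windows and Rpl10 7.87%, and their coding sequences are 84.7% identical. Rpl3l was at 1.66 ± 0.913 times Rpl3 in maternal knockout embryos (SD, n = 2) and 1.33 ± 0.104 times in control embryos (SD, n = 3). Oocytes held 1 read of Rpl3l. These ratios rest on a partner with 14.4% unique windows, against 100% for Rpl3l. The ratios of Rpl32l to Rpl32, from 0.0726 to 0.0923 as group means, and of Rps4l to Rps4x, from 0.653 to 0.789, overlapped between the stages. Rps4l is annotated as a transcribed pseudogene and has 85.1% unique windows, against 27.75% for Rps4x.

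**Figure D3:**
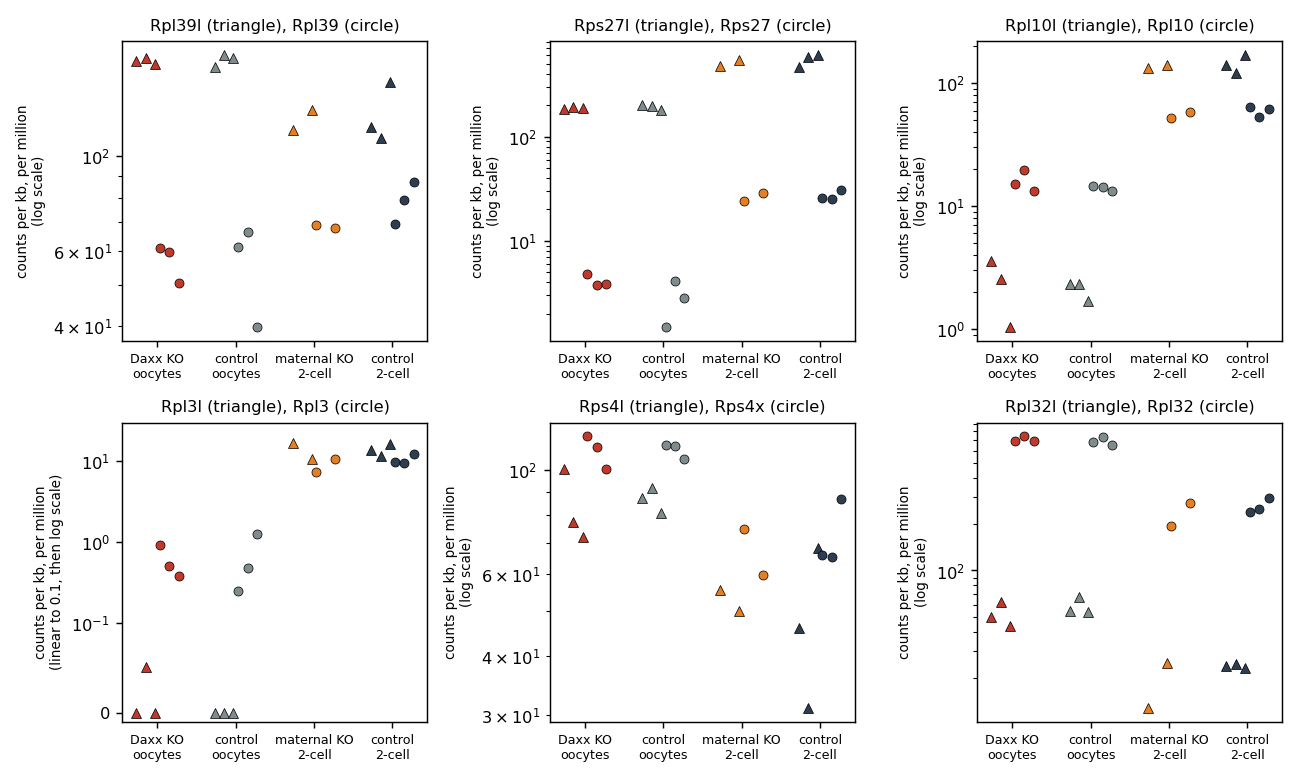
Level per length (counts per kilobase of deposited width) of 6 genes with names ending in l (triangles) and their partners (circles) in each library, on log scales; the Rpl3l panel is linear below 0.1. Rpl39l and Rps27l lie above their partners in every library, Rpl10l is below Rpl10 in oocytes and above it in embryos, and Rpl3l is at or near 0 in oocytes.

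In total RNA, 3 of the genes seem to carry the reads of small nucleolar RNAs that lie inside them. Such RNAs guide the modification of rRNA and are cut from introns of host genes, among them many ribosomal protein genes. The sequences are shown because their counts were large beside those of their hosts. Small nucleolar RNA genes of the table lay inside 21 of the 81 genes. In Rps3, Rps12 and Rpl13a, annotated exons of the host cover a small RNA gene whole. The deposited width of these 3 exceeds the transcript by at least its length, and the host count was higher in every library. By this rule the host count was taken to include the small RNA count, which is inferred because the counting settings are not known. The sequences, from GENCODE M21 on the minus strand of GRCm38, have the C box and the last CTGA (D box) in capitals. Snord15b lies in Rps3 at chr7:99479563-99479707, Snord100 in Rps12 at chr10:23785750-23785823 and Snord33 in Rpl13a at chr7:45126864-45126947.
Snord15b: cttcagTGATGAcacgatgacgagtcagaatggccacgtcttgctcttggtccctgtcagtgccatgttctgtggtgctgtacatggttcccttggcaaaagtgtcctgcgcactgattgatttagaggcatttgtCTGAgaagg
Snord100: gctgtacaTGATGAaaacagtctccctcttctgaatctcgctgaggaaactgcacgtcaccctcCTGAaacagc
Snord33: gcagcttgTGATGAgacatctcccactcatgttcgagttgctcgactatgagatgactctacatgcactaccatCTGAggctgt

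Rps3, a small subunit protein at the mRNA entry, had 548 and 860 CPM in maternal knockout embryos and 523, 664 and 663 CPM in control embryos, against 78.2, 83.2 and 75.3 CPM in knockout oocytes and 69.8, 79.6 and 76.3 CPM in control oocytes. The count of Snord15b was 78.4% and 78.9% of that of Rps3 in maternal knockout embryos and 73.3% to 77.0% in control embryos. In oocytes it was 84.4% to 85.5% in knockouts and 84.8% to 86.0% in controls. The count of the small RNAs inside Rps12 was 56.8% and 58.3% of that of Rps12 in maternal knockout embryos and 51.0% to 55.8% in control embryos. The count of Snord33 was 50.4% and 51.4% of that of Rpl13a in maternal knockout embryos and 41.9% to 62.9% in control embryos. With these counts subtracted, the remainder of Rps3 rose by a log2 change of 3.60 ± 0.19 in knockouts and 3.79 ± 0.12 in controls. That of Rps12 rose by 3.16 ± 0.22 in knockouts and 3.25 ± 0.53 in controls, and that of Rpl13a by 2.28 ± 0.17 in knockouts and 1.88 ± 0.16 in controls. All 6 changes passed the test. In control embryos the remainder of Rps12 was 111, 370 and 150 CPM, and the subtracted count moved with it, at 132, 385.5 and 190 CPM. Snord34 and Snord35a, also inside Rpl13a, did not meet the rule and were not subtracted. Whether the remainders hold more small RNA reads was not tested, so these rises are not shown to be of mRNA.

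Rps3, Rps12 and Rpl13a together held 45.2% and 41.4% of all reads of the 81 genes in maternal knockout embryos and 32.5%, 44.9% and 33.1% in control embryos, against 13.0% to 14.6% in oocytes of both genotypes. Without them the share of counted reads was 0.187% and 0.215% in maternal knockout embryos and 0.198%, 0.226% and 0.252% in control embryos. In oocytes it was 0.119%, 0.124% and 0.113% in knockouts and 0.114%, 0.121% and 0.112% in controls. Rps12 varied widely among embryo libraries: it had 588 and 390 CPM in maternal knockout embryos and 244, 755 and 340 CPM in control embryos. The libraries with the most Rps12, maternal knockout embryo 2 and control embryo 2, were also those with the most Lars2 reads, at 1.81% and 1.85% of the library, against 0.482% to 0.871% in the other embryo libraries. Lars2 encodes the mitochondrial leucyl-tRNA synthetase, and its part in these values was not tested.

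**Figure D4:**
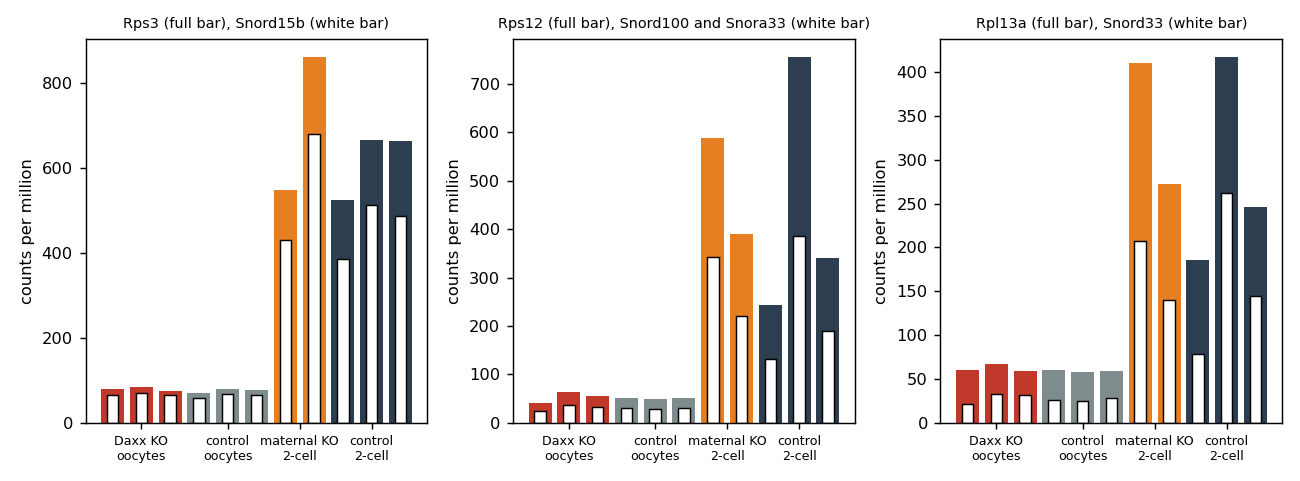
CPM of Rps3, Rps12 and Rpl13a (full bars) and of the small nucleolar RNA genes inside them (white bars, drawn over the full ones) in each library, grouped by genotype and stage. The white bars take the larger part of Rps3 in every library, and both kinds of bar are several times higher in the embryo libraries.

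The other 18 hosts did not meet the rule above for holding small RNA reads. Of all 21, 11 had fewer counts than the small RNA genes inside them in at least 1 library. Across all 21 hosts, 19 rose and 2 fell in controls, and 17 rose and 2 fell in knockouts. Of the 60 genes that host none, 42 rose and 11 fell in knockouts and 45 rose and 6 fell in controls.

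Promoter windows, from 250 bases before to 50 after an annotated start, were found in a RefSeq table (GRCm38.p6) for 60 of the 81 genes. A start base C followed by 4 pyrimidines, the core of a TOP start, stood in 21.7% of these windows and in 2.30% of the windows of all 18281 genes. A run of at least 8 pyrimidines touching bases -5 to +10 was found in 38.3% and 11.1%. The letters CCGGAA, found in sites of ETS factors, were in 48.3% of the windows of the ribosomal protein genes and 19% of all windows on either strand. For TCTCGCG these shares were 20.0% and 3.66%, for ATGGCG 28.3% and 11%, for CTTTCC 46.7% and 26.1%, for CTTTTC 26.7% and 20.9%, for GGGCGG 56.7% and 46.4%, and for TATAAA 10% and 13%. No pair of these motifs was searched for overlap. A match is a description of letters.

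To show how these starts differ, 3 of them follow from 40 bases before to 20 after the annotated start, with the longest pyrimidine run touching bases -5 to +10 in capitals. They lie at chr10:23787190-23787249 on the minus strand (Rps12), chr9:66946046-66946105 on the plus strand (Rps27l) and chr12:66284382-66284441 on the minus strand (Rpl10l).
Rps12: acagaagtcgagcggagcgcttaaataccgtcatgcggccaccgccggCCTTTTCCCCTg
Rps27l: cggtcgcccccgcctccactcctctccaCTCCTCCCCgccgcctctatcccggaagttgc
Rpl10l: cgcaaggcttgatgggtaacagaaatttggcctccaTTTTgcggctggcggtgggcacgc
Rps12 and Rps27l have long runs and Rpl10l a short one, and all 3 genes rose. None of the 3 has a start base C followed by 4 pyrimidines. The run of Rps12 lies after the annotated start and that of Rps27l before it. Of the 23 genes with a run of at least 8 pyrimidines, 16 rose and 5 fell in knockouts and 17 rose and 1 fell in controls. Of the 37 with a shorter run, 28 rose and 4 fell in knockouts and 30 rose and 3 fell in controls. The median log2 change was 0.69 in knockouts and 0.87 in controls with the longer runs, and 1.77 in knockouts and 1.91 in controls with the shorter ones.

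No ribosomal protein gene differed between the genotypes past the threshold at either stage. In oocytes, 79 of the 81 genes were tested (Rpl3l and Rpl9 were too low) and 0 passed an adjusted p of 0.05 with edgeR and 0 with limma-voom, while DESeq2 called 1, Rpl17. Over all 14235 genes tested, edgeR called 0.450% higher and 0.133% lower. Of the same genes, DESeq2 called 153 higher and 70 lower, and limma-voom 45 higher and 12 lower. At an unadjusted p under 0.05 there were 2 genes, both higher in knockouts, where the share over all genes was 5.67%. The median log2 change was 0.03. Granulosa and cumulus markers summed to 44.0 to 46.4 CPM in knockout oocytes and 36.2 to 41.5 CPM in control oocytes, and sperm and spermatid markers to 9.61 to 11.9 CPM in knockouts and 6.40 to 6.78 CPM in controls. Of these, Prm2, a sperm protamine, passed in knockouts with a log2 change of 1.54 (adjusted p = 0.00277, edgeR). Of the 13 granulosa and cumulus markers, only Ptx3 was at 0 in all 6 libraries, as were 3 of the 8 sperm and spermatid markers (Tnp1, Tnp2 and Smcp). The part of these markers in the result was not tested.

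Rpl17 had the smallest p in oocytes, with 13.0, 10.7 and 12.2 CPM in knockouts and 7.30, 8.14 and 9.53 CPM in controls. The groups did not overlap, and the log2 change was 0.50 ± 0.12 with an adjusted p of 0.114 (edgeR). It passed with DESeq2 (adjusted p = 0.0264), without a filter on low counts (0.0325) and without control oocyte 3 (0.0264), and its adjusted p stayed at or above 0.05 under the other 13 alternatives. Rps14 was next, with 11.9, 14.4 and 13.4 CPM in knockouts and 10.6, 11.7 and 10.98 CPM in controls and a log2 change of 0.24 ± 0.10 (adjusted p = 0.423). Both genes lie on chromosome 18. The next by p were Rps15, Rplp2, Rpl7a, Rps16, Rpl35, Rpl34, Rps27 and Rps26, with log2 changes between -0.21 and 0.51 and adjusted p from 0.489 to 0.714.

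In 2-cell embryos 0 of 81 genes passed with edgeR, DESeq2 or limma-voom, where 0.0260% of all 15414 genes were called higher and 0% lower. Even so, 70 of the 81 log2 changes were negative, with a median of -0.20, against 0.00 over all genes tested, of which 7650 were negative. At an unadjusted p under 0.05 there were 4 genes, all lower in maternal knockouts (Rpl22, Rpl26, Rpl7a and Rps26), or 4 of 81, against 1.11% of all genes. The median moved with single libraries: it was -0.08 without maternal knockout embryo 2, -0.29 without maternal knockout embryo 3, -0.12 without control embryo 3, and -0.27 without control embryo 1. The 81 genes were measured in the same 5 libraries and are not independent replicates. Some lists of related genes, given below, leaned the same way. Negative were 8 of 8 ribosomal proteins outside the name rule (median -0.18) and 15 of 15 other TOP genes (-0.11). So were 14 of 15 genes of RNA polymerase I (-0.17) and 12 of 14 chaperones and assembly factors (-0.14). Of mTORC1 and Larp1 genes 8 of 16 were negative, of dormancy factors 4 of 6, and around the 5S RNP and p53 7 of 10. The lower median was not particular to the 81 genes. Oocyte markers summed to 2105 and 2187 CPM in maternal knockout embryos and 1698, 1979 and 1620 CPM in control embryos, and all 10 were detected. Their part in the result was not tested.

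Rpl22 had the smallest p, with 16.3 and 13.6 CPM in maternal knockout embryos and 17.4, 20.0 and 24.8 CPM in control embryos. The groups did not overlap, and the log2 change was -0.50 ± 0.21 (unadjusted p = 0.0267, adjusted p = 1.00 by edgeR). Rpl26, a large subunit protein known for binding p53 mRNA in human cells, had 13.7 and 14.1 CPM in maternal knockout embryos and 17.02, 20.2 and 19.3 CPM in control embryos, a log2 change of -0.47 ± 0.20. Rpl7a had 10.9 and 12.3 CPM in maternal knockouts and 11.8, 19.7 and 18.1 CPM in controls, which overlapped. The 10 smallest p also included Rps26, Rpl35, Rpl4, Rps25, Rpl23 and Rps19, with log2 changes from -0.50 to -0.27. Of the 81 genes, 8 were lower in both maternal knockout libraries than in every control and 1 was higher, where all genes gave 6.38% and 11.4%.

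**Figure D5:**
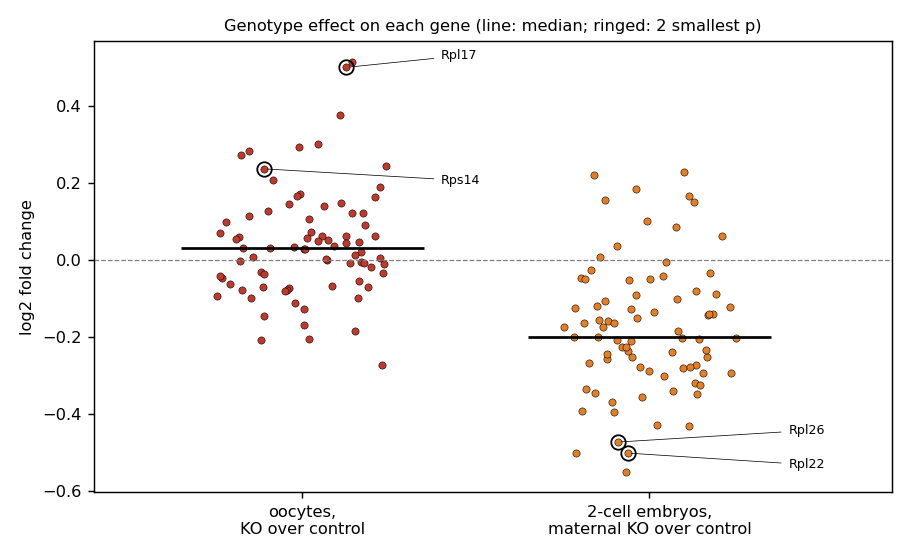
Log2 fold change of each ribosomal protein gene for knockout over control, in oocytes (79 genes) and in 2-cell embryos (81 genes), with the median as a line and the 2 smallest p ringed. The oocyte values are centred near 0 and the embryo values lie mostly below 0, and no gene passed the test in either comparison.

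The difference between the genotype effects, embryo minus oocyte, was tested in all 11 libraries together. It called 0 of 81 genes with edgeR, DESeq2 and limma-voom, against 0.0118% of all 17018 genes, and the median difference was -0.24, against -0.01 over all genes. That median was -0.39 without maternal knockout embryo 3 and -0.15 without control embryo 3, and lay between -0.34 and -0.16 without any one of the other libraries. At an unadjusted p under 0.05 there were 6 genes, all with a more negative effect in embryos, as had 2.88% of all genes: Rpl22, Rpl35, Rpl17, Rpl26, Rpl4 and Rpl23, with differences from -0.71 to -0.29. Their adjusted p was 0.913. The 10 smallest p also included Rps14, Rps16 and Rps15, at adjusted p from 0.932 to 0.936. None of the 81 genes had knockout libraries all above or all below the controls at both stages. In embryos alone, 11.4% of all genes lay above and 6.38% below. The share of all genes at both stages was not computed, so that count is not a result about the 81 genes.

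Ribosomal proteins outside the name rule also included more rises than falls between stages. Of the 8 in the table, 5 rose and 2 fell in knockouts and 6 rose and 2 fell in controls, with a median log2 change of 1.90 in knockouts and 2.27 in controls. Over all genes tested the median was 0.09 in knockouts and 0.07 in controls, with 42.5% higher and 37.7% lower in knockouts and 43.1% higher and 40.0% lower in controls. Rpsa, a small subunit protein also known as the laminin receptor, rose by a log2 change of 4.46 in knockouts and 4.29 in controls. Fau, made as a fusion with a ubiquitin-like domain, rose by 2.26 in knockouts and by 2.39 in controls. Rpl7l1 rose by 3.01 in knockouts and by 3.16 in controls. Rack1, the scaffold of the small subunit head, fell by 0.63 in knockouts and by 0.42 in controls on the log2 scale.

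Of 15 other translation genes with TOP mRNAs, 6 rose and 6 fell in knockouts and 8 rose and 6 fell in controls, shares near those over all genes, with a median of 0.22 in knockouts and 0.28 in controls. Pabpc1, the poly(A)-binding protein, rose by a log2 change of 5.61 in knockouts and 5.71 in controls, and Nap1l1 by 0.91 in knockouts and 0.97 in controls. Eef1d, an exchange factor for elongation, fell by 1.53 in knockouts and by 1.42 in controls, and Eif3e, an initiation factor subunit, by 1.99 in knockouts and by 1.76 in controls. Of 16 genes of mTORC1 and Larp1, 12 rose and 1 fell in knockouts and 11 rose and 1 fell in controls, with a median of 0.81 in knockouts and 0.65 in controls. Larp1, which binds TOP mRNAs, rose by 3.93 in knockouts and 3.996 in controls, and its relative Larp1b by 5.07 in knockouts and 5.28 in controls. Larp4 rose by 1.83 in knockouts and 1.99 in controls, and Rptor, the scaffold of mTORC1, by 1.84 in knockouts and 1.64 in controls.

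Of 14 ribosomal protein chaperones and ribosome assembly factors, 11 rose and 1 fell in both genotypes, with a median of 1.26 in knockouts and 1.46 in controls. Over all genes tested, 42.5% rose and 37.7% fell in knockouts, and 43.1% rose and 40.0% fell in controls. Zfp622, a maturation factor of the large subunit, rose by a log2 change of 11.46 in controls, Tsr1 by 3.29, Nob1 by 3.77 and Rrs1 by 2.34. Of 15 genes of RNA polymerase I and its factors, 11 rose and 2 fell in knockouts (median 2.32) and 13 rose and 2 fell in controls (median 2.53), among them Ttf1 (5.74 in controls), Ubtf (3.47), Cd3eap (3.59) and Rrn3 (2.15). Of 8 factors that keep ribosomes dormant, 4 rose and 3 fell in both genotypes (median 0.27 in knockouts and 0.45 in controls), shares near those over all genes. The 4 with the smallest p in controls were Eif5a2, Eif5a, Serbp1 and Ifrd2, which rose there by 4.06, 1.33, 1.17 and 2.02. The 3 that fell are not named here. Of 10 genes around the 5S RNP and p53, 8 rose and 1, Trp53, fell in both genotypes, with a median of 0.98 in knockouts and 1.09 in controls. Sesn2, Pidd1 and Cdkn1a, known as p53 targets, rose by 6.84, 5.29 and 2.33 in controls. Bbc3, another such target, also rose and had 7.52 to 10.4 CPM in control embryos and at most 0.0614 CPM in control oocytes. In knockout against control, 0 of the 84 genes tested at each stage, of 86 in these 7 lists, passed with edgeR. An unadjusted p under 0.05 was found for 5 of the 84 in oocytes, against 10.3% of all genes, and for 4 in embryos, against 3.19% of all genes. DESeq2 and limma-voom each called 1 in oocytes, Heatr3, and 0 in embryos. Heatr3, known in human cells for the nuclear import of Rpl5, had 9.11, 8.77 and 14.5 CPM in knockout oocytes, against 26.1, 19.7 and 26.9 CPM in control oocytes. The groups did not overlap, and its adjusted p was 0.187 with edgeR, 0.00569 with DESeq2 and 0.0450 with limma-voom (log2 change -1.18 ± 0.25 with edgeR). It was singled out after its values were seen.

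The labelled cells could be checked by their markers. All 10 oocyte markers fell between stages in both genotypes, Gdf9, Zp1, Mos and Bmp15 by 3.78, 3.62, 5.02 and 2.47 in controls on the log2 scale. Of 8 markers of the 2-cell stage, 7 rose in knockouts and 8 in controls, among them Tcstv3, Tdpoz4, Pramel7 and Zfp352, and these 8 summed to 802 and 833 CPM in maternal knockout embryos and 712, 874 and 716 CPM in control embryos. Of 13 granulosa and cumulus markers, 9 were tested in knockouts, where 3 rose and 2 fell. In controls 8 were tested, of which 3 rose and 4 fell. Amhr2, Tnfaip6 and Star rose and Cyp19a1 fell in controls. Of 8 sperm and spermatid markers, the others being too low to test, 4 were tested in knockouts and 3 in controls. Of those tested 0 rose, and 3 fell in knockouts and 2, Gapdhs and Prm2, in controls. Of 5 blood markers, 2 were tested in knockouts, where 1 (Lyz2) rose, and 1 in controls, Cd68, which did not pass.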

How the data were processed

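The authors deposited whole-number read counts for 24421 Entrez genes in 11 libraries, with a width per gene. Per the labels' protocols, the libraries were made from total RNA with the NuGEN SoLo kit. Reads were mapped with STAR 2.5.0a to GRCm38 (mm10), and SAMtools was used, per the submitters' processing notes. On the counting program, its use of strand and its treatment of multi-mapped reads, nothing is given in the sources used here. Symbols and coordinates came from a RefSeq table of GRCm38.p6, in which 24387 identifiers matched and 34 did not. Maternal knockout embryo replicate 1 was not analysed here.

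Each library was 1 pool, and p-values measure the spread between pools. Counts of pairs of replicates differed by a chi-square of 5.10 to 37.2 per degree of freedom, so no pair was treated as 1 library. A count of 0 allows 0.0754 to 0.167 CPM (3 counts), and floors and intervals cover counting error only.

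Tests used edgeR 4.0.16 in R 4.3.3: filterByExpr (count minimum 10, total minimum 15), TMM scaling, the robust quasi-likelihood F test and Benjamini-Hochberg adjustment over all genes tested, at a threshold of 0.05. The SE is the log2 change divided by the square root of F. Alternatives were DESeq2 1.42.0, limma-voom 3.58.1, fits with other scalings or filters, with a replicate block, over all 11 libraries at once, and without each library in turn. Counts were simulated in a single run with the trended spread at each mean count, without each gene's own spread. Changes were placed only in genes with a mean above 1 CPM. On these counts the embryo comparison of genotypes (15391 genes) found 12.3% of 65 genes changed 1.5-fold and 67.1% of 73 changed 2-fold. That of oocytes (14234 genes) found 62.1% at 1.5-fold and 90.9% at 2-fold. These shares need not hold for genes that vary more between libraries than the trend. Taking small nucleolar RNA reads from 3 hosts, and counting without the hosts, were added after the data were seen.

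Windows of 50 bases were compared exactly, on both strands, with all GENCODE M21 transcripts. The genes and the lists were chosen with earlier results of these data known. Named by rule were the genes ending in l and their partners, the 10 largest rises and falls between stages, the 10 smallest p for each genotype comparison, the 5 highest and lowest per length, X-linked genes, Rpl5 and Rpl11, and up to 4 genes of each list by p in the control stage comparison. Not every gene it chose is reported here. Other genes, such as Rack1, Rpl22l1, Trp53 and Lyz2, were named after their values were seen. The lists were ribosomal proteins outside the name rule, other TOP genes, chaperones and assembly factors, mTORC1 and Larp1, dormancy factors, RNA polymerase I, and 5S RNP and p53. The others were markers of oocytes, 2-cell embryos, granulosa and cumulus, sperm and spermatids, and blood.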

Additional observations from a re-analysis of the deposited data

How the results depend on the processing

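Over 16 alternatives for control embryos against control oocytes, 60 to 65 genes were higher and 8 to 10 lower. Over 15 for the knockouts, 52 to 60 were higher and 11 to 14 lower. No call changed direction: 50 of the 59 rises and 11 of the 13 falls in knockouts, and 59 of the 64 rises and all 8 falls in controls, passed under every one. Scaling moved the median of all genes between stages to at most 0.18 (log2) in knockouts and 0.17 in controls, and without a filter it was 0.30 in knockouts and 0.34 in controls. The comparison of genotypes in oocytes called 1 gene higher, Rpl17, without a filter and with DESeq2, and 0 to 1 with a library left out. The embryo comparison and the difference between stages called 0 throughout. Correlations of same-numbered libraries, taken on deviations from the group mean, lay between -0.107 and 0.0867 over 10 pairs. Those of libraries with different numbers lay between -0.197 and 0.173. With so few libraries in a group the deviations constrain each other, so these values cannot decide whether replicate numbers pair the samples. With a replicate block, 54 genes rose and 11 fell in knockouts, 64 rose and 8 fell in controls, and 0 were called between genotypes in oocytes, in embryos and in the difference. Subtracting small nucleolar RNA reads left the counts at 59 and 13 in knockouts and 64 and 8 in controls. Without the 100 highest other genes the share of the 81 genes was 0.163% in knockout oocytes, 0.158% in control oocytes, 0.413% in maternal knockout embryos and 0.417% in control embryos. Over the 68 genes with at least 1 CPM in every library the median level per length was 32.1 in knockout oocytes, 28.5 in control oocytes, 51.9 in maternal knockout embryos and 57.4 in control embryos. Levels under the floor of 3 counts, as of Rpl3l in control oocytes, were not detectable at this depth. The genotype comparison of embryos had 2 knockout libraries.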
